A study of Sus scrofa with 6 samples.

Results

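The genes described here make, import, store and export cholesterol. They were chosen by function, from 31 listed symbols that stand for 30 pig genes, since CYP51 and CYP51A1 name the same gene. All 30 had a row among the 35670 gene identifiers counted and all 30 were among the 14242 identifiers with enough reads to be tested. The RNA came from pig (Sus scrofa) granulosa cells in primary culture and was sequenced as stranded mRNA libraries. Granulosa cells surround the oocyte and take part in making steroid hormones. Cells were aspirated from healthy follicles of 3 to 6 mm and grown at 37 °C in a medium with fetal bovine serum, which carries lipoproteins, to more than 70% confluency. Heated cultures (n = 3) then spent 6 h at 42 °C, while control cultures (n = 3) stayed at 37 °C for the same time. The labels number the samples as biological replicates without naming the animals or cultures behind them, so the p-values measure only the spread between these samples.

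Animal cells balance cholesterol through the endoplasmic reticulum. When its membranes are poor in sterol, SCAP escorts the SREBP transcription factors to the Golgi, where they are cut free to enter the nucleus and switch on the genes of synthesis and uptake. When sterol is plentiful, the INSIG proteins hold SCAP back, and oxysterols activate LXR, a nuclear receptor that switches on the efflux pumps. In the ovary the same pool feeds steroid hormone synthesis.

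The libraries held between 20411952 and 29606378 gene counts in heat and between 18711440 and 22599356 in controls. HSPA6, a strictly inducible heat shock gene, had between 149 and 501 CPM (counts scaled to the library total with TMM factors) in heat and between 0.267 and 0.873 CPM in controls. Libraries of the same group differed in how alike they were. Across the 30 cholesterol genes, the Pearson correlation of log2(CPM + 1) was 0.994 between heat 1 and heat 2 and 0.994 between control 2 and control 3. Control 1 correlated at 0.948 with heat 1 but at 0.881 and 0.891 with control 2 and control 3, and the library most like heat 3 was control 1, at 0.903. These values run across genes, which are not independent, and only describe likeness. Defining granulosa markers were scarce. FSHR, the follicle-stimulating hormone receptor, had 0, 2 and 0 reads in heat 1, 2 and 3 and 6, 49 and 15 reads in control 1, 2 and 3, and INHA, the inhibin alpha subunit, had at most 7 reads in a library. Of the 14 granulosa markers listed, 12 had a row, and INHBA, GJA1, CDH2 and SERPINE2 were abundant. AMH, KRT18 and HSD17B1 had at most 6, 7 and 9 reads in a library. INHBB, FST and NR5A2 lay between 2.45 and 54.4 CPM. FOXL2 and CYP19A1 were not analysed here. Of the surface epithelium markers, KRT8, UPK3B and LHX9 had a row and summed to between 10.2 and 13.6 CPM in heat and between 2.01 and 5.27 CPM in controls, and KRT8 and UPK3B rose. Endothelial markers summed to at most 10.8 CPM in a library, with CDH5 at 0 in all. Smooth muscle markers, all 5 of them detected in each library, summed to between 6727 and 14696 CPM in heat and between 9984 and 10253 CPM in controls. The part of these markers in the results was not tested. STAR, which carries cholesterol into mitochondria for steroid synthesis, stayed below 1 CPM in all 6 libraries.

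None of the 30 genes passed the test between heat and control (edgeR quasi-likelihood test, Benjamini-Hochberg adjusted p below 0.05 over all tested genes), against 11.0% of all tested genes. The 95% interval of the log2 fold change reached a median of 0.88 to either side of its estimate over the 30 genes (0.62 to 2.34), so a missed threshold does not show that a gene was unchanged. At an unadjusted p below 0.05 there were 8 of 30, against 33.9% of all tested genes. The heat and control libraries did not overlap for 8 genes. These were 6 with heat above (SREBF2, SCAP, MVK, LSS, TM7SF2, NSDHL) and 2 with heat below (INSIG2, NPC2). The share, 26.7%, was below the 37.8% of all tested genes without overlap, of which 20.9% had heat above and 16.8% heat below. The median log2 fold change of the 30 genes was -0.06, heat minus control, beside 0.05 for all tested genes, with 13 positive and 17 negative values (14 positive with upper-quartile factors). For 24 of the 30 the difference between group means of log2(CPM + 1) was smaller than the range within at least one group, which held for 71.6% of all tested genes.

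**Figure D1:**
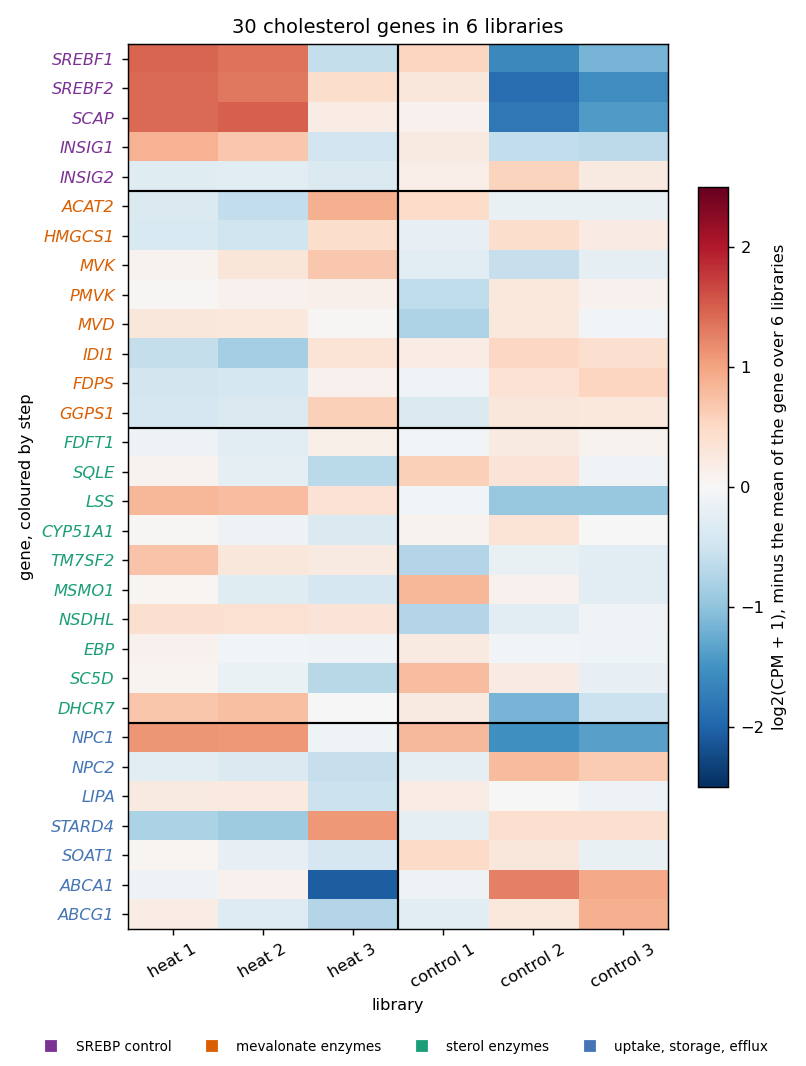
Each row is a gene and each column a library, heat left of control. Colour gives log2(CPM + 1) minus the mean of that gene over the 6 libraries, and the gene names are coloured by step. SREBF2, SCAP and NPC1 are high in heat 1 and heat 2 and low in control 2 and control 3, while STARD4 and ACAT2 are highest in heat 3 and ABCA1 is lowest there.

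SCAP, SREBF2 and SREBF1, which control the pathway, had the largest positive log2 fold changes of the 30 genes, though none passed. SREBF2 encodes SREBP-2, the factor that mainly drives cholesterol synthesis and uptake, and lies on chromosome 5 at 6719484 to 6784724 (Sscrofa11.1, as are all positions here). It stood at 65.9, 62.3 and 33.1 CPM in heat 1, 2 and 3, against 29.5, 5.76 and 7.59 CPM in control 1, 2 and 3. The groups did not overlap, but heat 3 and control 1 lay close together. The log2 fold change was 1.92 ± 0.65 (SE), with an edgeR adjusted p of 0.0876. SCAP, the sterol-sensing escort, lies on chromosome 13 at 30253262 to 30320625. It stood at 62.3, 65.4 and 25.9 CPM in heat 1, 2 and 3, against 24.4, 5.85 and 7.78 CPM in control 1, 2 and 3, and its log2 fold change was 2.02 ± 0.63 (edgeR adjusted p = 0.0705). Its libraries stood in nearly the same order as those of SREBF2.

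SREBF1 encodes SREBP-1, which mainly drives fatty acid synthesis, and lies on chromosome 12 at 60733967 to 60750951. It was low throughout, at 10.3, 9.53 and 1.71 CPM in heat 1, 2 and 3, against 4.94, 0.349 and 0.843 CPM in control 1, 2 and 3. Heat 3 lay below control 1, so the groups overlapped, and the lowest library held only 8 reads. Its log2 fold change, 1.83 ± 1.01, had the largest SE of the 30 genes, with a 95% interval of -0.51 to 4.18.

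The INSIG genes had log2 fold changes of opposite sign, and neither passed. INSIG1 is itself switched on by SREBPs and lies on chromosome 18 at 2885494 to 2898758. It stood at 102, 88.9 and 39.3 CPM in heat 1, 2 and 3, against 65.2, 35.6 and 34.7 CPM in control 1, 2 and 3, with heat 3 below control 1 (log2 fold change 0.77 ± 0.45, edgeR adjusted p = 0.254). INSIG2, which holds SCAP in the same way but depends less on SREBPs, stood at 18.8, 18.97 and 18.0 CPM in heat 1, 2 and 3, against 26.4, 34.8 and 27.4 CPM in control 1, 2 and 3. Its heat libraries were nearly equal and all lay below the controls (log2 fold change -0.67 ± 0.27, edgeR adjusted p = 0.127). RefSeq lists INSIG2 at 2 places, on chromosome 15 at 23676684 to 23699591 and on chromosome 7 at 52466406 to 52467387, so how its reads were assigned is uncertain.

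**Figure D2:**
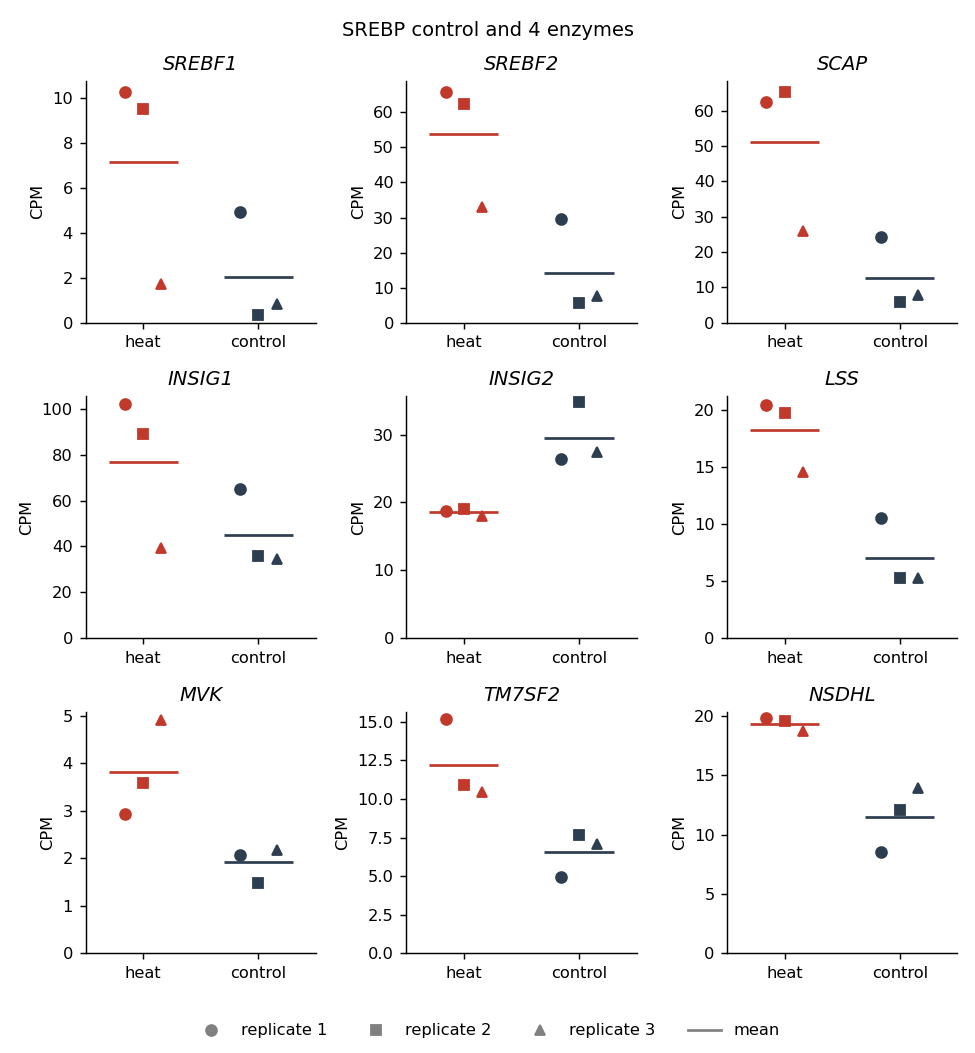
Each panel shows TMM-scaled CPM on a linear axis for a gene of SREBP control or an enzyme, heat left of control, with a marker for each replicate and a line at the mean. For SREBF2 and SCAP the lowest heat library (33.1 and 25.9 CPM) is close to the highest control (29.5 and 24.4 CPM), while INSIG2 is the one gene shown with all heat libraries below the controls.

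SREBF1, SREBF2, SCAP, INSIG1, LSS, DHCR7 and NPC1 shared an order of libraries, with heat 1 and heat 2 on top, heat 3 and control 1 between, and control 2 and control 3 at the bottom. This order was noticed in the data and is a description. It held for 7 of the 30 genes (23.3%) and for 14.6% of all tested genes. Stromal markers were also lowest in control 2 and control 3. This held for each of the 6 with a row (DCN, LUM, COL1A1, COL3A1, PDGFRA, PDGFRB), all detected in every library. Their summed level, nearly all of it COL1A1 and COL3A1, was 46320, 42076 and 13465 CPM in heat 1, 2 and 3, against 33399, 4604 and 3961 CPM in control 1, 2 and 3. DCN and LUM reached at most 79.1 and 189.8 CPM in a heat library, against 107 and 349 CPM in control 1, their highest library. Of the theca markers, INSL3 was at 0 in all libraries and CYP17A1 had at most 4 reads, while the 5 together summed to between 23.1 and 50.4 CPM in heat and between 4.41 and 16.8 CPM in controls, nearly all of it NR2F2. The part of these markers in the order of the SREBP genes was not tested. In bulk RNA, fewer cells of a type and less RNA per cell cannot be told apart.

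The enzymes that build isoprenoid units up to farnesyl and geranylgeranyl diphosphate (8 genes) showed no shared direction, with 4 positive and 4 negative log2 fold changes and a median of 0.00. HMGCS1, which makes HMG-CoA, lies on chromosome 16 at 27936225 to 27957261. It stood at 72.1, 66.6 and 129 CPM in heat 1, 2 and 3, against 81.7, 129 and 109.8 CPM in control 1, 2 and 3. Heat 3 was level with the highest control, while heat 1 and heat 2 lay below every control (log2 fold change -0.26 ± 0.37). The same split was seen in IDI1, the isopentenyl diphosphate isomerase, with 19.6, 16.3 and 38.3 CPM in heat 1, 2 and 3, against 34.7, 43.3 and 40.4 CPM in control 1, 2 and 3. FDPS, which makes farnesyl diphosphate, stood at 27.5, 27.6 and 40.7 CPM in heat 1, 2 and 3, against 35.3, 49.4 and 55.5 CPM in control 1, 2 and 3.

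ACAT2, the cytosolic thiolase that starts the pathway, had its highest value in heat 3. It stood at 22.7, 18.9 and 55.7 CPM in heat 1, 2 and 3, against 40.9, 25.7 and 25.9 CPM in control 1, 2 and 3. Its annotated span overlaps TCP1, a chaperonin gene, and no source used here gives the strand setting of the counting, so its reads are uncertain. GGPS1, which makes the lipid that anchors small GTPases to membranes, was also highest in heat 3, at 38.8 CPM, against 18.5 and 19.4 CPM in heat 1 and heat 2 and between 19.2 and 30.8 CPM in controls.

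The kinases and the decarboxylase that convert mevalonate were scarce, all below 5 CPM. MVK, which phosphorylates mevalonate, stood at 2.94, 3.58 and 4.92 CPM in heat 1, 2 and 3, against 2.07, 1.48 and 2.18 CPM in control 1, 2 and 3. Its groups did not overlap, but it did not pass (log2 fold change 1.00 ± 0.39, edgeR adjusted p = 0.119). PMVK averaged 1.64 ± 0.0868 CPM in heat and 1.42 ± 0.721 CPM in controls, and MVD averaged 3.47 ± 0.412 CPM in heat and 2.55 ± 1.21 CPM in controls (SD, n = 3 each). Control 1 was the lowest library for both. The span of PMVK overlaps that of KCNN3.

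Among the 10 enzymes from squalene synthesis to cholesterol, LSS had the largest difference and the smallest adjusted p of all 30 genes. LSS closes squalene epoxide into lanosterol, the first sterol, and its RefSeq record lies on a scaffold not placed on a chromosome. It stood at 20.4, 19.8 and 14.5 CPM in heat 1, 2 and 3, against 10.5, 5.28 and 5.31 CPM in control 1, 2 and 3. All heat libraries lay above all controls, with a log2 fold change of 1.38 ± 0.38 and a 95% interval of 0.50 to 2.25 (edgeR adjusted p = 0.0546).

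Other late enzymes had heat above control without passing. TM7SF2, a sterol reductase on chromosome 2 at 7076778 to 7081502, stood at 15.2, 10.9 and 10.5 CPM in heat 1, 2 and 3, against 4.94, 7.64 and 7.09 CPM in control 1, 2 and 3 (edgeR adjusted p = 0.101). NSDHL, which helps remove the methyl groups of lanosterol, lies on chromosome X at 123906130 to 123921935. It stood at 19.8, 19.5 and 18.7 CPM in heat 1, 2 and 3, against 8.55, 12.1 and 13.9 CPM in control 1, 2 and 3 (edgeR adjusted p = 0.120). For both genes control 1 was the lowest library, unlike for LSS, where it was the highest control. DHCR7, the reductase of the last step of one branch, averaged 14.6 ± 4.04 CPM in heat and 7.32 ± 3.95 CPM in controls (SD, n = 3 each), with heat 3 below control 1.

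The remaining 6 sterol enzymes had negative log2 fold changes between -0.04 and -0.56. SQLE, the epoxidase that is a second control point of the pathway, lies on chromosome 4 at 14669789 to 14700152. It stood at 84.3, 67.8 and 49.5 CPM in heat 1, 2 and 3, against 121, 100.3 and 74.8 CPM in control 1, 2 and 3. Only heat 1 reached into the control range (log2 fold change -0.55 ± 0.34, edgeR adjusted p = 0.270). The methyl oxidase MSMO1 averaged 126 ± 22.5 CPM in heat and 180 ± 72.2 CPM in controls, and the desaturase SC5D averaged 67.2 ± 17.7 CPM in heat and 98.8 ± 34.2 CPM in controls (SD, n = 3 each). Control 1 was the highest library and heat 3 the lowest for SQLE, MSMO1 and SC5D alike. The span of SC5D overlaps that of LOC106504896.

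FDFT1, the squalene synthase that commits farnesyl diphosphate to sterols, was among the steadiest genes, with 31.1, 28.3 and 38.1 CPM in heat 1, 2 and 3, against 32.4, 40.0 and 36.6 CPM in control 1, 2 and 3. CYP51A1, the lanosterol demethylase, averaged 88.6 ± 11.8 CPM in heat and 109 ± 13.96 CPM in controls (SD, n = 3 each). EBP, a sterol isomerase, averaged 20.3 ± 1.56 CPM in heat and 20.9 ± 2.83 CPM in controls. The 95% interval of its log2 fold change was -0.66 to 0.58, so a change anywhere within that range remains compatible with these data.

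**Figure D3:**
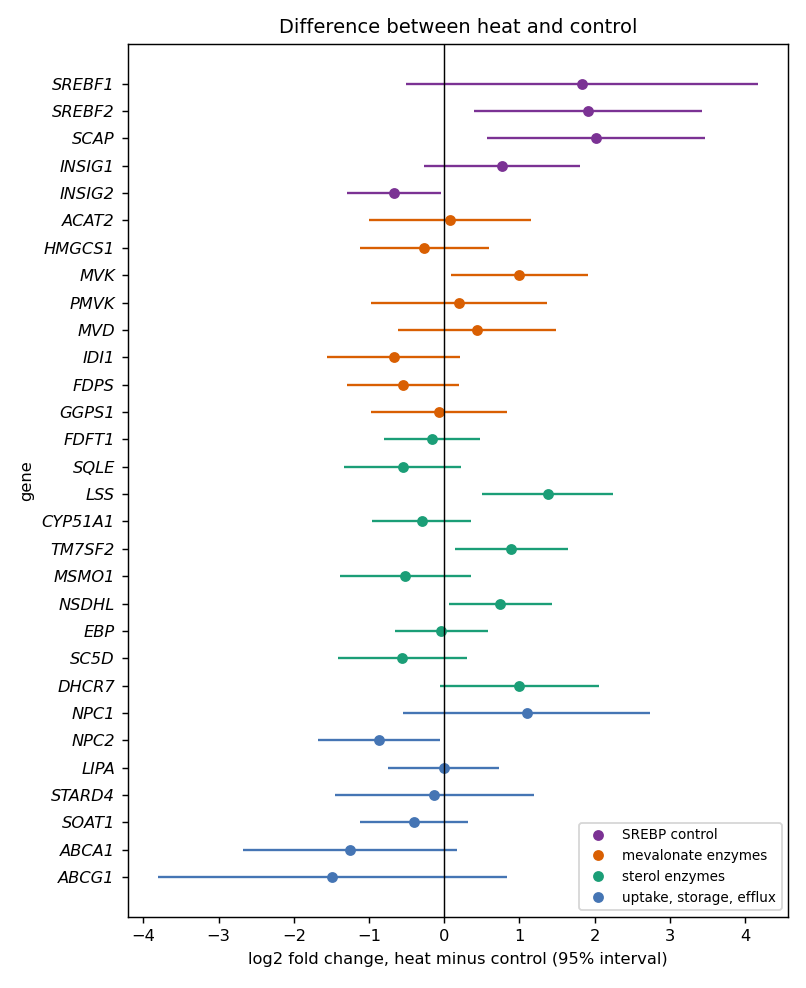
Points give the log2 fold change, heat minus control, of each gene and bars its 95% interval from the edgeR fit (3 libraries a group), coloured by step. The intervals of SREBF2, SCAP, MVK, LSS, TM7SF2 and NSDHL lie above 0 and those of INSIG2 and NPC2 below 0 before adjustment, and none passed after adjustment over all tested genes.

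Taken as sums, the 18 synthesis enzymes reached 712, 618 and 705 CPM in heat 1, 2 and 3, against 929, 849 and 720 CPM in control 1, 2 and 3. All 3 heat sums lay below the lowest control, heat 1 and heat 3 only narrowly. As a share of all counts, which uses no scaling factor, they were 0.0695, 0.0651 and 0.0779% in heat 1, 2 and 3, against 0.0743, 0.0861 and 0.0777% in control 1, 2 and 3, and the groups overlapped. The sums follow the most abundant enzymes, such as MSMO1, CYP51A1 and HMGCS1.

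Genes that handle cholesterol after uptake had 6 negative log2 fold changes of 7, although LIPA, near zero, turned positive with upper-quartile factors. NPC2, the soluble lysosomal protein that hands cholesterol to NPC1, lies on chromosome 7 at 97730532 to 97740087. It stood at 82.98, 76.9 and 66.9 CPM in heat 1, 2 and 3, against 85.5, 172 and 155 CPM in control 1, 2 and 3. Heat 1 came within a few CPM of control 1, while control 2 and control 3 were far above both (log2 fold change -0.87 ± 0.35, edgeR adjusted p = 0.127). NPC1, the membrane protein that exports that cholesterol from lysosomes, had a positive difference and lies on chromosome 6 at 108403126 to 108450486. It stood at 57.0, 56.2 and 24.0 CPM in heat 1, 2 and 3, against 46.5, 8.34 and 9.52 CPM in control 1, 2 and 3. Control 1 was nearly at the level of heat 1 and heat 2, and the groups overlapped (log2 fold change 1.09 ± 0.71). Its span overlaps C6H18orf8.

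LIPA, the lysosomal lipase that frees cholesterol from lipoprotein esters, stood at 80.8, 82.3 and 47.1 CPM in heat 1, 2 and 3, against 79.1, 69.9 and 62.5 CPM in control 1, 2 and 3. Its log2 fold change was -0.01, with a 95% interval of -0.75 to 0.73, and its annotated span on chromosome 14 (101131372 to 101254739) covers the interferon-induced genes IFIT1, IFIT2 and IFIT3, so its reads are uncertain. STARD4, which ferries cholesterol between membranes and is a target of SREBP-2, lies on chromosome 2 at 116235821 to 116257143. It stood at 56.1, 53.0 and 208 CPM in heat 1, 2 and 3, against 83.2, 132 and 133 CPM in control 1, 2 and 3. The heat group held both the lowest and the highest values, and the mean difference was near zero (log2 fold change -0.13 ± 0.57). The span of STARD4 overlaps that of LOC102158757.

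SOAT1, which esterifies cholesterol for storage, averaged 68.3 ± 11.3 CPM in heat and 90.3 ± 20.6 CPM in controls (SD, n = 3 each). Its libraries stood at 79.9, 67.5 and 57.4 CPM in heat 1, 2 and 3, against 108, 94.7 and 67.9 CPM in control 1, 2 and 3. Heat 1 overlapped the control range and the difference did not pass (edgeR adjusted p = 0.377).

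The efflux pumps, both targets of LXR, were lowest in heat 3. ABCA1, which loads cholesterol onto apolipoprotein A-I, lies on chromosome 1 at 246144277 to 246278492. It stood at 47.6, 55.5 and 11.7 CPM in heat 1, 2 and 3, against 47.0, 126 and 101 CPM in control 1, 2 and 3. Control 1 lay at the level of heat 1, far below the other controls (log2 fold change -1.25 ± 0.61, 95% interval -2.67 to 0.16, edgeR adjusted p = 0.186). ABCG1, which exports cholesterol to high-density lipoprotein, was sparsely read, with 19, 8 and 1 reads in heat 1, 2 and 3, against 6, 24 and 44 reads in control 1, 2 and 3. Its log2 fold change, -1.49 ± 1.00, was the most negative of the 30 genes. The groups overlapped, and the 95% interval was -3.81 to 0.83 (edgeR adjusted p = 0.319).

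Control 2 and control 3, where ABCA1, ABCG1 and NPC2 were highest, also had the highest summed levels of macrophage and leukocyte markers. The 9 markers summed to 4.74, 3.16 and 1.41 CPM in heat 1, 2 and 3, against 3.34, 34.7 and 69.2 CPM in control 1, 2 and 3. Most of this was LYZ, at 26.3 and 54.1 CPM in control 2 and control 3. PTPRC, the leukocyte common antigen, had 35 and 64 reads in these libraries and 0 in each of the other 4. CSF1R, CD163, AIF1 and TYROBP were also highest in control 2 and control 3. The remaining markers differed. CD14 was highest in heat 1 and heat 2, at 2.24 and 1.95 CPM, against 1.14 and 1.69 CPM in control 2 and control 3. ITGAM, with at most 8 reads in a library, was also highest in heat 1 and heat 2. CD68 was highest in control 3, but control 2 lay below heat 1 and control 1. The part of macrophages and leukocytes in the levels of ABCA1, ABCG1 and NPC2 was not tested.

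**Figure D4:**
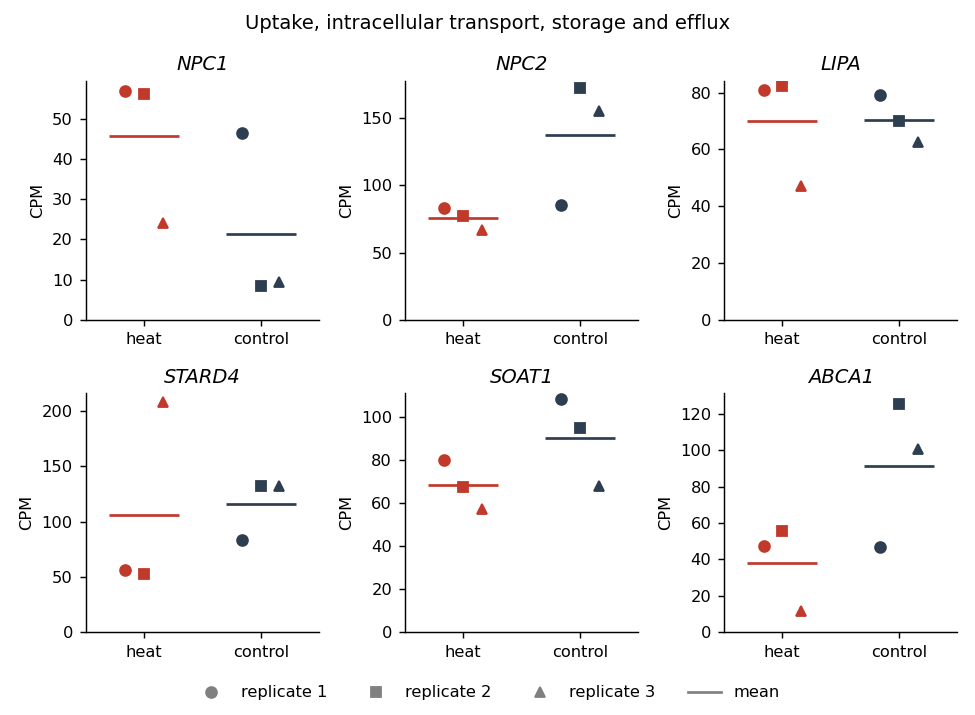
Panels show TMM-scaled CPM on linear axes for the genes of lysosomal export, transfer, storage and efflux, heat left of control, with a marker for each replicate and a line at the mean. For STARD4 heat replicate 3, at 208 CPM, stands above all others, and for ABCA1 the same library, at 11.7 CPM, stands below all others.

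The calls depended on which libraries were in the fit. Without control 1, 6 of the 30 genes were called higher (SREBF1, SREBF2, SCAP, LSS, DHCR7, NPC1), against 19.6% of all tested genes, and 2 were called lower (INSIG2, NPC2), against 12.3%. Without heat 3, SCAP, LSS and TM7SF2 were called higher, against 18.4% of all tested genes, and IDI1 and STARD4 lower, against 17.7%. Without heat 1, heat 2, control 2 or control 3, none was called, and at most 0.0475% of all tested genes were called higher. With both control 1 and heat 3 left out, 11 of 30 were called higher and 11 lower, against 41.2% and 38.4% of all tested genes, in a comparison of nearly identical pairs of libraries. The higher ones were SREBF1, SREBF2, SCAP, INSIG1, MVK, LSS, TM7SF2, NSDHL, DHCR7, NPC1 and LIPA. The lower ones were INSIG2, ACAT2, HMGCS1, IDI1, FDPS, GGPS1, FDFT1, NPC2, STARD4, ABCA1 and ABCG1. Other tools with all 6 libraries differed mainly on the genes nearest the threshold. DESeq2 called SREBF2, SCAP and LSS higher (14.9% of all tested genes), limma-voom called LSS higher (6.65%), limma on the authors' normalized table called LSS higher (8.06%), and edgeR without a filter on low counts called SREBF2, SCAP and LSS higher (6.24%). None of these 4 fits called any of the 30 lower.

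Beyond these 30, 51 other genes of sterol and lipid handling were listed by function, of which 47 had a row and 44 were tested. Of these, 2 rose, 1 fell and 41 did not pass, and the median log2 fold change was 0.45. The share called, 6.82%, was below the 11.0% of all tested genes. FASN, the fatty acid synthase and a target of SREBP-1, rose, with 44.5, 43.0 and 20.8 CPM in heat 1, 2 and 3, against 8.68, 2.49 and 3.72 CPM in control 1, 2 and 3 (log2 fold change 2.87 ± 0.55, edgeR adjusted p = 0.0325). Its libraries had the order described for SREBF2, with heat 3 above control 1. All 9 tested fatty acid targets of SREBP-1 had positive log2 fold changes, but FASN was the only one that passed. Over all tested genes, 7416 of 14242 were positive. For ELOVL6 and FADS1, control 1 was the highest library, at 124 and 83.1 CPM, against at most 73.8 and 80.7 CPM in heat. Their positive values therefore came from the low levels in control 2 and control 3.

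The GRAMD1 genes encode proteins that move cholesterol from the plasma membrane to the endoplasmic reticulum. GRAMD1A rose, at 15.2, 15.2 and 13.2 CPM in heat 1, 2 and 3, against 6.21, 3.32 and 4.26 CPM in control 1, 2 and 3 (log2 fold change 1.66 ± 0.34, edgeR adjusted p = 0.0339). GRAMD1C fell, at 0.499, 0.930 and 1.50 CPM in heat 1, 2 and 3, against 3.94, 3.93 and 4.02 CPM in control 1, 2 and 3 (log2 fold change -2.00 ± 0.47, edgeR adjusted p = 0.0420). GRAMD1C was sparsely read, with 10, 20 and 49 reads in heat 1, 2 and 3. GRAMD1B had a log2 fold change of 1.01 ± 0.59 and did not pass. With the near-identical libraries summed, FASN, GRAMD1A and GRAMD1C did not pass either (edgeR adjusted p = 0.217, 0.428 and 0.433). Without heat 1, heat 2, control 2 or control 3, none of the 44 genes was called. In the fit that left out control 1, 12 were called higher and 4 lower, against 19.6% and 12.3% of all tested genes. In the fit that left out heat 3, 7 were called higher and 4 lower, against 18.4% and 17.7%. With both left out, 31 were called higher and 6 lower, against 41.2% and 38.4%.

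**Figure D5:**
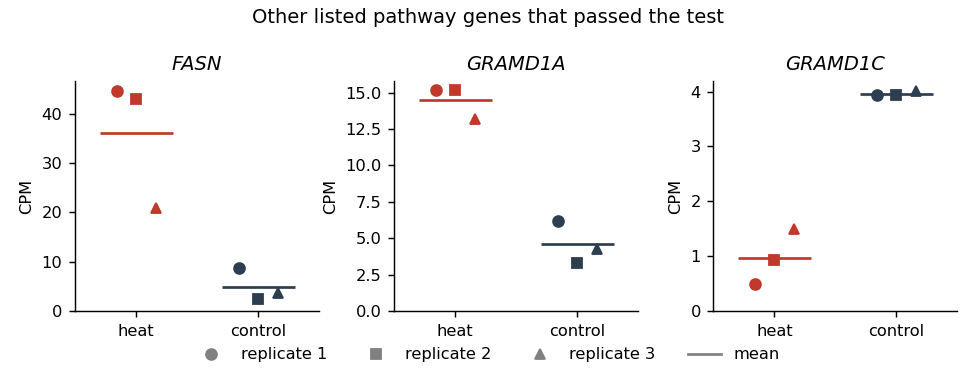
Panels show TMM-scaled CPM on linear axes for the 3 other listed pathway genes that passed, heat left of control, with a marker for each replicate and a line at the mean. For each of them the 3 heat libraries lie on one side of the 3 control libraries, with heat above for FASN and GRAMD1A and below for GRAMD1C.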

How the data were processed

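Granulosa cell RNA from 3 heat and 3 control libraries was compared, with groups taken from the labels. The submitters' processing notes name FastQC 0.11.4, Trim Galore, STAR and the Sscrofa11.1 assembly. No source used here gives the counting tool, its strand setting or the annotation release. Raw counts per Ensembl identifier, as deposited, were the main input. The deposited normalized table holds a signal, which the authors made by dividing the counts of 13298 genes by 1 factor per library. Multiplied back, 100% of its values were whole reads within 1e-06.

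Symbols came from the reference table (15623 identifiers), and positions from RefSeq genes of Sscrofa11.1 matched by symbol. No gene lengths of transcripts were used, so levels are compared within a gene only. Genes were kept by filterByExpr of edgeR 4.0.16 (minimum count 10, R 4.3.3), scaled with TMM factors and tested with the two-sided quasi-likelihood F test with robust dispersions, adjusted by Benjamini-Hochberg over 14242 genes and called below 0.05. The SE is the absolute log2 fold change over the square root of F. Intervals are at 95%. The test was checked on simulated data. Alternatives used DESeq2 1.42.0 and limma 3.58.1.

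The genes and lists were chosen with earlier results of these data known. All 30 genes are named, library by library where the groups do not overlap or the gene is a regulator or key step named in the rule. Genes given library by library outside that rule (IDI1, FDPS, ACAT2, GGPS1), and GRAMD1B, were chosen after their values were seen. A planned motif search in promoters was not run. A listed gene is not reported here and was left out of the counts of other pathway genes.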

Additional observations from a re-analysis of the deposited data

How the results depend on the processing

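Of 478 log2 fold changes of the 30 genes under 16 alternatives, 410 kept direction and side of the threshold, 48 newly passed and 22 changed sign, among them 2 that also passed (ACAT2 and LIPA, both without control 1 and heat 3). The sign changed for 6 genes whose difference was near zero, and 24 genes kept theirs. ACAT2 was at -0.054 with limma-voom, -0.062 with limma on the authors' normalized table, -0.073 with the replicate block and -0.33 without both control 1 and heat 3. Leaving out 1 library at a time, it ranged from -0.58 to 0.34, EBP from -0.14 to 0.051, GGPS1 from -0.52 to 0.11, LIPA from -0.13 to 0.19, PMVK from -0.18 to 0.47 and STARD4 from -1.10 to 0.19. Without both control 1 and heat 3, EBP was at 0.093, LIPA at 0.28 and PMVK at -0.21. With the near-identical libraries summed, GGPS1 was at 0.17 and STARD4 at 0.25, and LIPA was at 0.050 with upper-quartile factors. The cause was not tested.

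Over all genes 956 were called higher and 615 lower. Without a filter 1607 were called higher, with DESeq2 2118 higher and 1792 lower, with near-identical libraries summed 2 higher and 0 lower, and without both control 1 and heat 3 6285 higher and 5857 lower. Leaving out 1 library at a time gave 0 to 3021 higher and 0 to 2713 lower, and for the 30 genes 0 to 6 higher and 0 to 2 lower. Of the 30, 3 were called higher without a filter (SREBF2, SCAP, LSS), 3 with DESeq2, 1 with limma-voom, 1 with limma on the authors' normalized table (LSS) and 11 higher and 11 lower without both control 1 and heat 3. Reads recovered from the normalized table, added after seeing the data, gave 981 higher and 650 lower and none of 29 members tested.

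The labels do not say whether libraries with the same replicate number are paired. Deviations from the group mean correlated at 0.38, -0.30 and 0.32 for replicates 1, 2 and 3. Not every library correlated best with its own number. With 3 libraries in a group, such deviations are not independent, so these values cannot settle whether the libraries are paired. With the replicate block 2104 genes were called higher and 1300 lower, among them 5 of the 30 higher (SREBF1, SREBF2, SCAP, LSS, NPC1), against 14.8% of all tested genes, and 0 lower. Between scalings the median log2 fold change of all genes lay between -0.0040 and 0.078. ABCG1 had from 1 to 44 reads in a library, which limits its precision.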

Other observations

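SCARB1, the receptor that takes up cholesterol esters from high-density lipoprotein and a main route of cholesterol into steroid-making cells, did not pass but differed widely between libraries. It stood at 68.1, 58.6 and 37.8 CPM in heat 1, 2 and 3, against 39.9, 6.42 and 5.31 CPM in control 1, 2 and 3 (log2 fold change 1.67 ± 0.77, edgeR adjusted p = 0.166). VLDLR, the other abundant lipoprotein receptor of the list, stood at 740, 680 and 325 CPM in heat 1, 2 and 3, against 725, 404 and 324 CPM in control 1, 2 and 3, a log2 fold change of 0.26 ± 0.48. ELOVL6, a fatty acid elongase, was at 73.8, 64.5 and 69.5 CPM in heat 1, 2 and 3, against 124, 15.5 and 13.7 CPM in control 1, 2 and 3, so the controls held both its highest and its lowest values. APOE, the apolipoprotein of cell cholesterol export and a target of LXR, was at 117, 110.1 and 36.5 CPM in heat 1, 2 and 3, against 44.5, 23.3 and 20.3 CPM in control 1, 2 and 3. Heat 3 lay below control 1, so the groups overlapped (log2 fold change 1.58 ± 0.52, edgeR adjusted p = 0.0812). The sign for APOE was opposite to that for ABCA1, but neither gene passed. LXR beta itself, NR1H2, was at 25.2, 22.6 and 15.2 CPM in heat 1, 2 and 3, against 6.54, 9.17 and 10.8 CPM in control 1, 2 and 3, with no overlap (log2 fold change 1.25 ± 0.34, edgeR adjusted p = 0.0523). These 5 genes were named after their values were seen.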
